A study of Mus musculus with 8 samples.

Results

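Cajal-Retzius (CR) nuclei were sought in the hippocampus of mice at postnatal day 21, and 105 of 11518 kept nuclei were found by a marker rule (0.912%, 95% exact binomial interval 0.746 to 1.10%). A nucleus was a member when it held at least 1 UMI of Reln, at least 1 UMI of 3 or more of the 6 genes Trp73, Ebf3, Ndnf, Lhx1, Samd3 and Cd274, and at most 1 UMI of Gad2. The nuclei came from the hippocampi of wild-type male C57BL/6J offspring, profiled by single-nucleus multiome sequencing, which reads RNA and accessible chromatin (ATAC) of the same nucleus. Dams received folic acid (FA) in the diet at 2 mg/kg (MF) or 20 mg/kg (HF), starting 2 weeks before mating and lasting until the pups were taken. Each diet had 2 libraries, written here as MF 1, MF 2, HF 1 and HF 2, and all groups shared the strain, tissue and age. The study calls the 2 libraries of a diet biological replicates. How many pups went into a library was not stated, so the p-values measure only the spread between these libraries, which need not equal that between pups.

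CR cells are early-born neurons of the cortical and hippocampal marginal zones. They arise at the borders of the developing pallium, such as the cortical hem, and secrete reelin, the large extracellular protein that guides the layering of migrating neurons through the receptors Vldlr and Lrp8 and the adaptor Dab1. They are glutamatergic, and most of them die in the neocortex soon after birth, while in the hippocampus some remain along the fissure for longer. Their identity is tied to transcription factors that include the p53 family member Trp73, the helix-loop-helix factor Ebf3 and the LIM homeobox factors Lhx1 and Lhx5.

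The sequences of 6 accessible regions are shown first, because the accessibility of these regions was the readout that the marker rule did not use. The first 4 were among the 10 regions with the smallest adjusted p that were more accessible in CR nuclei, and the last 2 lie in introns of Trp73. Each is the central 300 bases of the region on mm10 (GRCm38), plus strand. Capitals mark matches to the EBF motif TCCCNNGGGA, the homeobox motif TAATTA or the E-box CAGCTG. Each of these motifs reads the same on both strands, and a match describes the letters only. The printed regions do not show how common the motifs are among the 10. The regions nearest to Gm47716, Twsg1 and Gm25888 and the 1 in Dnah17 hold no match and are not printed.
Intergenic region near Slc28a1, chr7:81110048-81110347: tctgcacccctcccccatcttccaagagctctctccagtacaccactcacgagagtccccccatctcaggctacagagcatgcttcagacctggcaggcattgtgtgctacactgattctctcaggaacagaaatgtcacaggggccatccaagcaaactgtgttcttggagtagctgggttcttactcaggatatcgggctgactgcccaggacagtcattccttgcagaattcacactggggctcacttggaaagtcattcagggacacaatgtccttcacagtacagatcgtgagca
Intergenic region near Gm12724, chr4:106220672-106220971: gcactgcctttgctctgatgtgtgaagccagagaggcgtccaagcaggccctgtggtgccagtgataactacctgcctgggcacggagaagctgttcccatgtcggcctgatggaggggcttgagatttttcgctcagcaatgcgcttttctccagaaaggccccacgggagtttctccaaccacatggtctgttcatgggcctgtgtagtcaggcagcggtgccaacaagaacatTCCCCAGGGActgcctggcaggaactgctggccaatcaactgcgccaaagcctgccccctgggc
Rgs6 intron, chr12:83073333-83073632: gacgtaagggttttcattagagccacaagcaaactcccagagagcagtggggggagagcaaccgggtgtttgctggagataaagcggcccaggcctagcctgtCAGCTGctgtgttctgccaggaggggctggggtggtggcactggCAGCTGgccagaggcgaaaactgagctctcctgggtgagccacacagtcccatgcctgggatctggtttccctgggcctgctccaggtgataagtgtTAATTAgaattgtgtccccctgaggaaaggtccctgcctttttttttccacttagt
Adcy5 intron, chr16:35276122-35276421: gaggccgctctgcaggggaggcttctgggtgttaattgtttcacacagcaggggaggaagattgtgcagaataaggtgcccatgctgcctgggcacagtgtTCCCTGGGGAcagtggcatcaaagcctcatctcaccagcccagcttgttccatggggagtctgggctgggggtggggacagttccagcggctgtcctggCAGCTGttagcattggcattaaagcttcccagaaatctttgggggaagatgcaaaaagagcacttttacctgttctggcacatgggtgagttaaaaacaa
Trp73 intron, first region, chr4:154109484-154109783: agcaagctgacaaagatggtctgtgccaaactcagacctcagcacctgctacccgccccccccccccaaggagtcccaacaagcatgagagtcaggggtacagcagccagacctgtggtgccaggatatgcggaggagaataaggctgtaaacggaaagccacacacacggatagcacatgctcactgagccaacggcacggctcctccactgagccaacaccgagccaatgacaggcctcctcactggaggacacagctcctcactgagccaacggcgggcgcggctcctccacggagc
Trp73 intron, second region, chr4:154071965-154072264: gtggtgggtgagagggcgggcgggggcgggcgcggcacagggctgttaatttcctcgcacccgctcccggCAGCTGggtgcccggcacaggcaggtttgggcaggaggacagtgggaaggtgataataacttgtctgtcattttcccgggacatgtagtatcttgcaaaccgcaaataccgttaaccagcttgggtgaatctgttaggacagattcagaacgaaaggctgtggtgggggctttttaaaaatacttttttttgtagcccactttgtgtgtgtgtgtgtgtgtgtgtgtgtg

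The label was checked against a clustering that left out all genes of the rule and Gad1. Of the 105 members, 84 (80.0%) fell into 1 of 28 clusters, and this shared cluster held 106 nuclei. All 106 had Reln UMIs. Of its 22 nuclei outside the rule, 18 had 2 of the 6 markers, 3 had 1 marker and 1 was over the Gad2 limit. The other 21 members were spread over 11 clusters with at most 4 in any of them. The library counts of members were 26 in MF 1, 18 in MF 2, 36 in HF 1 and 25 in HF 2. Between 8 and 20 cell barcodes were shared by each pair of libraries, and 0 member barcodes occurred in more than 1 library.

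The members outside the shared cluster differed from the rest in depth and in doublet score. Their median was 16822 UMIs, against 3063.5 UMIs in the 84 members inside the cluster. They made up 52.0% of all member UMIs. A doublet score over 0.05 was found in 11 of the 21 (52.4%), in 8 of the 84 (9.52%) and in 15.2% of all other nuclei. Oligodendrocyte markers, 7 genes of myelin and its lineage, summed to 280 to 2851 CPM (here UMIs of a gene per 1000000 UMIs summed over a group of nuclei in 1 library) in the member libraries and to 288 to 724 in the 84 members. Microglial markers (7 genes) summed to 58.4 to 563 CPM in all members and to 18.0 to 128 in the 84, where Csf1r and Tmem119 were at 0. Both sums were higher in the 84 than in all members in MF 1 and HF 2, and lower in MF 2 and HF 1. Astrocyte markers (8 genes) summed to 429 to 646 CPM in all members and to 318 to 752 in the 84. Oligodendrocyte progenitor markers (6 genes) summed to 46.7 to 377 and 63.8 to 332. Pyramidal and granule neuron markers (13 genes) summed to 681 to 1960 and 584 to 1735. RNA levels are given below for all 105 members unless the 84 are named, a set that was added after the data were seen.

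Depth differed between the groups compared. Members had a median of 3388 UMIs and 16827 ATAC counts per nucleus, and all other kept nuclei had 6704 and 17698. Reln interneurons, here nuclei with Reln, at least 2 UMIs of Gad2 and no membership (n = 364), had a median of 12518 UMIs. Excitatory neurons, here nuclei with at least 2 UMIs of Slc17a7 and none of Gad1 or Gad2 (n = 2561), had 12455. The member UMIs of a library summed to between 118871 and 214243, and member ATAC counts to between 386059 and 638304.

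**Figure D1:**
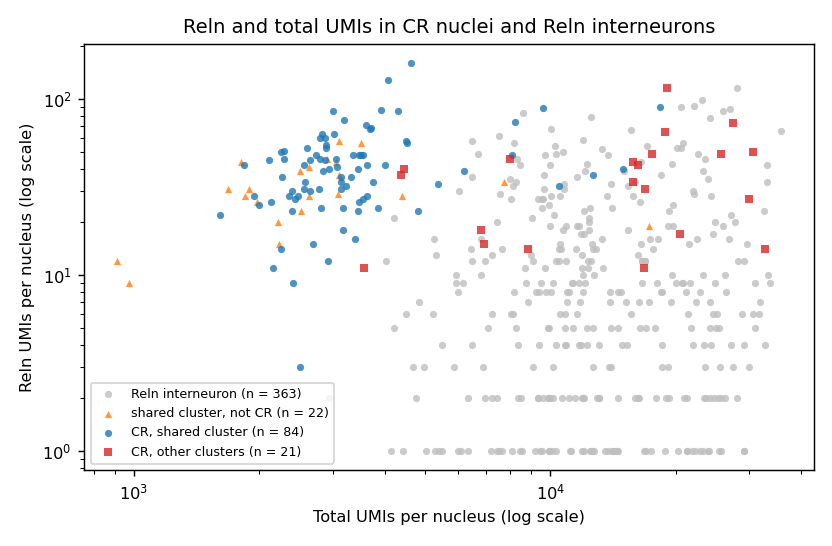
Reln UMIs against total UMIs of each nucleus, both on log scales, for CR nuclei inside (blue) and outside (red) the shared cluster, other nuclei of that cluster (orange) and Reln interneurons (gray, 363 of 364, since 1 lies in the shared cluster). CR nuclei held a median of 40 Reln UMIs at 3388 total UMIs, and Reln interneurons a median of 8.

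The genes of the rule describe the members and are given without a test. Reln summed to 10734 CPM in MF 1, 4980 in MF 2, 7254 in HF 1 and 5237 in HF 2. All 4 values lay above the mean of 990 ± 185 (SD, n = 4) in Reln interneurons and the 75.5 ± 6.06 in all other nuclei. The log2 ratio to all other nuclei was 6.48 ± 0.60 (SD, n = 4), and 7.08 in the 84. Trp73 summed to 395, 286, 364 and 159 CPM in MF 1, MF 2, HF 1 and HF 2, against 0.799 ± 0.142 in other nuclei and 2.38 ± 1.97 in Reln interneurons. Ebf3 gave 353, 266, 447 and 182 CPM, against 2.20 ± 1.48 in other nuclei. Ndnf, which encodes a secreted neuron-derived factor, gave 2212, 779, 1778 and 1055 CPM, against 104 ± 22.0 in Reln interneurons. Lhx1 gave 92.5, 39.0, 82.8 and 42.0 CPM from 41 UMIs in all. Cd274, which encodes the immune checkpoint ligand PD-L1, gave 168, 84.4, 116 and 93.4. Samd3 was the sparsest of the 6, with 23 UMIs in all and none in MF 2.

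Detection per nucleus of genes of the rule is given before and after each nucleus was thinned to 1500 UMIs. Trp73, Ebf3, Ndnf and Reln chose the members, so high shares in CR nuclei follow from the rule. Thinning after the choice does not remove this, and the shares are a description. Trp73 was seen in 84.8% of CR nuclei before thinning and 40.0% after it. In excitatory neurons, which should lack it, the shares were 1.05% and 0.0781%. Ebf3 was seen in 84.8% and, thinned, 45.7% of CR nuclei, and in 1.10% and 0.00% of Reln interneurons. Ndnf was seen in 99.0% and 85.7% of CR nuclei and in 27.7% and 11.5% of Reln interneurons. Reln, Trp73, Ebf3 and Ndnf were all present in 75 of the 105 members.

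The threshold of 3 markers cut through a continuous range. The 53 members with 3 markers had a median of 34 Reln UMIs, 8 Ndnf UMIs and 3028 total UMIs, and 42 of them were in the shared cluster. The 25 nuclei that held Reln and 2 markers within the Gad2 limit had medians of 31, 6 and 3087, and 18 of them were in that cluster. Another 40 members had 4 markers, 12 had 5 and 0 had 6. The Gad2 limit left out 3 nuclei with enough markers, and 6 nuclei with 3 or more markers had no Reln.

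Beyond the rule, CR nuclei held RNA of CR transcription factors, secreted and surface proteins and of a set of genes that are not on the CR lists. A gene was counted as higher when its level in CR nuclei was at least 2 times that of all other nuclei in each of the 4 libraries, among genes with at least 20 UMIs over the members. This minimum itself favors genes that are high in CR nuclei, the same nuclei were chosen by RNA, and the counts are descriptions without a test. Over all genes with that minimum, 177 of 5759 (3.07%) were higher and 13 (0.226%) were lower, and the median log2 ratio was 0.17. In the 84 members of the shared cluster 326 (5.66%) were higher and 180 (3.13%) were lower, and the median was 0.33.

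Leaving out the genes of the rule, 6 of 16 CR transcription factors reached 20 UMIs and 4 of these were higher, with a median log2 ratio of 2.44 for the 6 (5 higher and 3.12 in the 84). Nhlh2, a helix-loop-helix factor of young neurons, had 135 CPM in MF 1, 51.9 in MF 2, 66.2 in HF 1 and 37.3 in HF 2, against 1.30 ± 0.456 in other nuclei (log2 ratio 5.78 ± 0.31, SD, n = 4; 6.49 in the 84). The lowest CR library lay far above the other nuclei. Zic1, a zinc finger factor of the dorsal midline, had a log2 ratio of 3.86 ± 0.90, Emx2, a homeobox factor of the medial pallium, 2.54 ± 0.71, and Nr2f2, a nuclear receptor, 2.33 ± 0.58. In the 84 these were 4.58, 3.35 and 2.89. Tbr1, a T-box factor of early-born cortical neurons, was at 1.79 ± 0.63 and was not 2-fold higher in every library. Lhx5 had 18 UMIs over all members, Ebf1 18, Zic2 14, Barhl2 11, Zic4 8, Nhlh1 5 and Zic5 3, all under the minimum. Ebf2 and Eomes had 0 UMIs among 668264 member UMIs, which allows a level of up to 4.49 CPM by counting error.

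Among 9 secreted and surface genes outside the rule, 6 reached 20 UMIs and 3 were higher, with a median log2 ratio of 1.70 for the 6 (4 higher and 2.37 in the 84). Cacna2d2, an auxiliary subunit of voltage-gated calcium channels, had 572 CPM in MF 1, 312 in MF 2, 425 in HF 1 and 303 in HF 2. Other nuclei had 13.8 ± 1.36 and Reln interneurons 54.8 ± 8.88, so the groups did not overlap (log2 ratio to other nuclei 4.85 ± 0.36, SD, n = 4; 5.57 in the 84). Cxcr4, the receptor of the chemokine Cxcl12 that positions CR cells under the meninges, was at 35.8 ± 19.8 CPM from 22 UMIs (log2 ratio 4.75 ± 0.60). Car10, a secreted relative of the carbonic anhydrases, had a log2 ratio of 2.07 ± 0.22. Calb2, the calcium buffer calretinin, was at 1.34 ± 0.46 and was not 2-fold higher in every library.

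CR nuclei held the RNA of the glutamate transporter Slc17a6. The other 4 measured genes of glutamate release were neither 2-fold higher nor lower in every library (median log2 ratio -0.64 for the 5). This stands beside 3.07% and 0.226% of all genes, and for 4 genes it is near those shares. Slc17a6, the vesicular glutamate transporter VGLUT2, had 370 CPM in MF 1, 110 in MF 2, 210 in HF 1 and 112 in HF 2, against 17.3 ± 3.28 in other nuclei and 7.51 ± 2.90 in Reln interneurons. Every CR library lay above both groups, and the log2 ratio to other nuclei was 3.42 ± 0.55 (SD, n = 4; 4.15 in the 84). It was seen in 58.1% of CR nuclei and, thinned, 26.7%, against 6.59% and 1.37% of Reln interneurons. Gad1, which makes GABA, was at 41.7 ± 20.6 CPM, against 57.8 ± 8.21 in other nuclei and 252 ± 25.1 in Reln interneurons. The 6 genes of GABA synthesis and release summed to 182 to 227 CPM in CR nuclei, 217 to 279 in the 84 and 230 to 270 in other nuclei. Of the 3 measured ones 0 were 2-fold higher or lower in every library, and for 3 genes this is also near the shares of all genes. In the 84 members 1 of the 3 was higher, beside 5.66% of all genes. The description gives no result about these genes as a set. The 6 genes summed to 932 to 1123 CPM in Reln interneurons, a group chosen by Gad2, which the rule capped in CR nuclei. The 17 interneuron markers summed to 353 to 1433 CPM in CR nuclei, 457 to 775 in the 84 and 10699 to 12636 in Reln interneurons. In CR nuclei Dlx2, Dlx5, Lhx6 and Htr3a were at 0, and the other 13 had UMIs. Erbb4 had 0, 786, 193 and 1097 CPM in CR nuclei of MF 1, MF 2, HF 1 and HF 2. In the 84 it had 0, 451, 175 and 12.8. Sst had 135, 32.5, 93.8 and 42.0 CPM in all members of these libraries. Adarb2, a marker of interneurons from the caudal eminence, had 135, 143, 132 and 177 CPM in the 4 CR libraries, against 3633 ± 731 in Reln interneurons.

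Of 19 genes of the reelin pathway other than Reln, 13 reached 20 UMIs and 0 were higher or lower, beside 3.07% and 0.226% of all genes. For 13 genes this is near those shares. The receptor genes Vldlr and Lrp8 had log2 ratios of -0.19 ± 0.74 and 0.63 ± 0.37, and Dab1 had -0.89 ± 0.45. In the 84 members Dab1 was at -1.68.

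**Figure D2:**
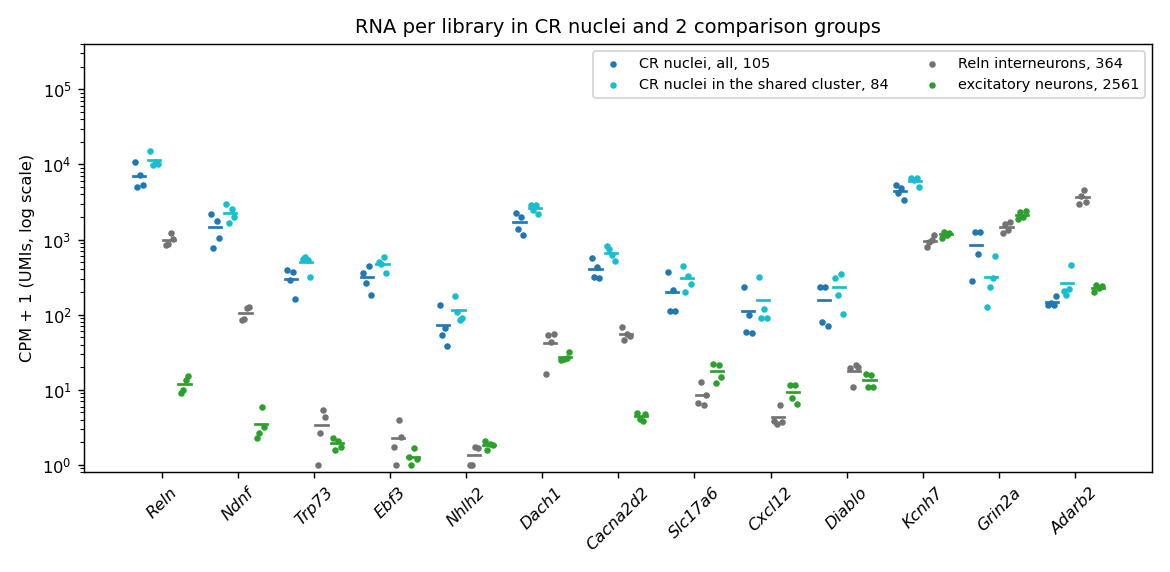
RNA of 13 genes in CPM plus 1, on a log scale; each point is 1 of 4 libraries and each line their mean, for all CR nuclei (dark blue), CR nuclei of the shared cluster (light blue), Reln interneurons (gray) and excitatory neurons (green). Dach1 and Slc17a6 lie higher in every CR library than in any library of the comparison groups, Reln, Ndnf, Trp73 and Ebf3 are genes of the rule that chose the nuclei, and Adarb2 lies highest in Reln interneurons.

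The 25 genes outside the rule with the largest log2 ratio, among 2468 genes found in at least 30% of members and with at least 5 UMIs in each library, ran from 2.92 to 6.69, and from 3.60 to 7.40 in the 84. Pik3c2g, a class II phosphoinositide 3-kinase, led them with 219, 84.4, 160 and 140 CPM, against 1.42 ± 0.223 in other nuclei. Dach1, a transcriptional cofactor of the dachshund family, had 2271, 1383, 1993 and 1144 CPM, against 42.9 ± 4.70 in other nuclei and 41.1 ± 18.2 in Reln interneurons (log2 ratio to other nuclei 5.26 ± 0.60; 5.85 in the 84). In both genes the lowest CR library stood far above the comparison groups. Matrix and adhesion genes among the 25 were Eln (elastin, 5.16), Hs3st5 (a heparan sulfate sulfotransferase, 4.87), Utrn (utrophin, a dystrophin relative, 4.06), Cdh4 (R-cadherin, 3.69) and Plekha7 (a protein of adherens junctions, 3.03). Signaling genes were Angpt1 (an angiopoietin, 3.39), Cxcl12 (the ligand of Cxcr4, 3.19) and Unc5b (a netrin receptor, 3.04). Transcriptional regulators included Nhlh2, Dach1 and Eya2 (3.91).

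Channel and receptor genes formed a mixed group. Kcnh7, which encodes an ERG-type potassium channel, had 5376 CPM in MF 1, 4208 in MF 2, 4924 in HF 1 and 3375 in HF 2, against 948 ± 90.1 in other nuclei and 968 ± 154 in Reln interneurons. The groups did not overlap, and the log2 ratio to other nuclei was 2.22 ± 0.43 (SD, n = 4). Kcnq5, a potassium channel of the M-current family, was at 1.17 ± 0.16. In all members 2 of 17 measured sodium, potassium and HCN channel genes were higher and 0 lower, beside 3.07% and 0.226% of all genes, with a median log2 ratio of -0.39. In the 84 this turned to 1 higher and 3 lower, beside 5.66% and 3.13% of all genes, with a median of -0.53, and Kcnh7 was at 2.67. Of 12 ionotropic glutamate receptor genes, 0 were 2-fold higher or lower in every library of all members. In the 84 members 4 were lower and 1 was higher. Grin2a, an NMDA receptor subunit, had 278, 1240, 640 and 1242 CPM in all members of MF 1, MF 2, HF 1 and HF 2, and 127, 234, 304 and 612 in the 84. Other nuclei had 1642 ± 219, so its log2 ratio moved from -1.16 ± 0.85 to -2.50 when the 21 members outside the cluster were left out. The part of doublets in this shift was not tested.

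Among cell death genes, Diablo, which encodes a mitochondrial protein that releases caspases from their inhibitors, had 236 CPM in MF 1, 77.9 in MF 2, 232 in HF 1 and 70.0 in HF 2, against 14.5 ± 2.79 in other nuclei (log2 ratio 3.27 ± 0.66, SD, n = 4; 3.97 in the 84). It was the only 1 of 7 measured genes of the 18 that was higher in all 4 libraries, beside 3.07% of all genes. In the 84 members 2 of the 7 were, beside 5.66% of all genes. None of the 5 measured folate and one-carbon genes, of 31, was 2-fold higher or lower, beside 3.07% and 0.226% of all genes. With 5 genes this is near those shares.

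Chromatin accessibility was not used to choose the members and was tested. ATAC counts over each gene and the 2000 bases upstream were summed per library in CR nuclei and in all other nuclei and compared with edgeR's quasi-likelihood test, with the library as a term. Of 23162 genes, 1093 (4.72%) were more accessible in CR nuclei and 1799 (7.77%) were less accessible at a Benjamini-Hochberg adjusted p under 0.05, and the median log2 ratio over all genes was -0.10. Levels are given in ATAC CPM, counts per 1000000 of the counts summed over all gene windows. Among the 19 CR transcription factors 13 were more accessible, 1 was less accessible and the median log2 ratio was 1.73. Without the genes of the rule these were 11 and 1 of 16. Among the 13 secreted and surface genes 7 were more accessible and none was less, with a median of 0.89, and without the genes of the rule 4 of 9 were more accessible. In the 84 members, 5 of these 9 were more accessible and 1 was less, where 986 of 22996 genes were called more accessible and 2260 less. Against excitatory neurons 13 of the 19 transcription factors were more accessible and 1 was less, where 7.14% and 13.5% of 22749 genes were called. Counts were taken over the peaks of each library's own peak set, which both sums of a library share, and the gene windows of Zic1 and Zic4 overlap. Without HF 1 the totals were 550 more and 977 less accessible genes, and without MF 1 the less accessible genes numbered 1173.

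Trp73 (chr4:154056253-154140208, minus strand) had 345 ATAC CPM in MF 1, 263 in MF 2, 279 in HF 1 and 233 in HF 2. Other nuclei had 78.8, 87.8, 83.0 and 84.2, so the groups did not overlap. The log2 ratio was 1.73 ± 0.124 (SE, edgeR adjusted p = 7.92e-40), and 1.94 against Reln interneurons (edgeR adjusted p = 9.54e-11). Ebf3 (chr7:137193673-137314445, minus strand) had 108, 98.7, 207 and 102 ATAC CPM in CR nuclei and 30.5, 25.1, 32.2 and 27.4 in other nuclei (log2 ratio 2.13 ± 0.181, edgeR adjusted p = 2.79e-28). Zic1 (chr9:91358058-91365810, minus strand) had 87.0, 39.5, 57.5 and 55.5 in CR nuclei and 16.4, 10.3, 16.3 and 8.78 in other nuclei (log2 ratio 2.21 ± 0.324). In each of these genes the lowest CR library lay above the highest library of other nuclei.

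Further members of the list were more accessible, several of them with RNA under the minimum. Barhl2, a homeobox factor of the BarH family, had a log2 ratio of 2.98 ± 0.58 from 11 UMIs of RNA. Lhx5 was at 2.18 ± 0.614, Zic2 at 1.58 ± 0.25, Zic5 at 1.87 ± 0.431 and Nhlh1 at 1.58 ± 0.328. Nhlh2 was at 2.10 ± 0.379, Nr2f2 at 0.74 ± 0.191 and Emx2 at 0.67 ± 0.211, and Emx2 was not called in the 84 members (edgeR adjusted p = 0.119). Lhx1 was not called at 2.45 ± 1.21, and it had counts only in MF 1 and HF 1.

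**Figure D3:**
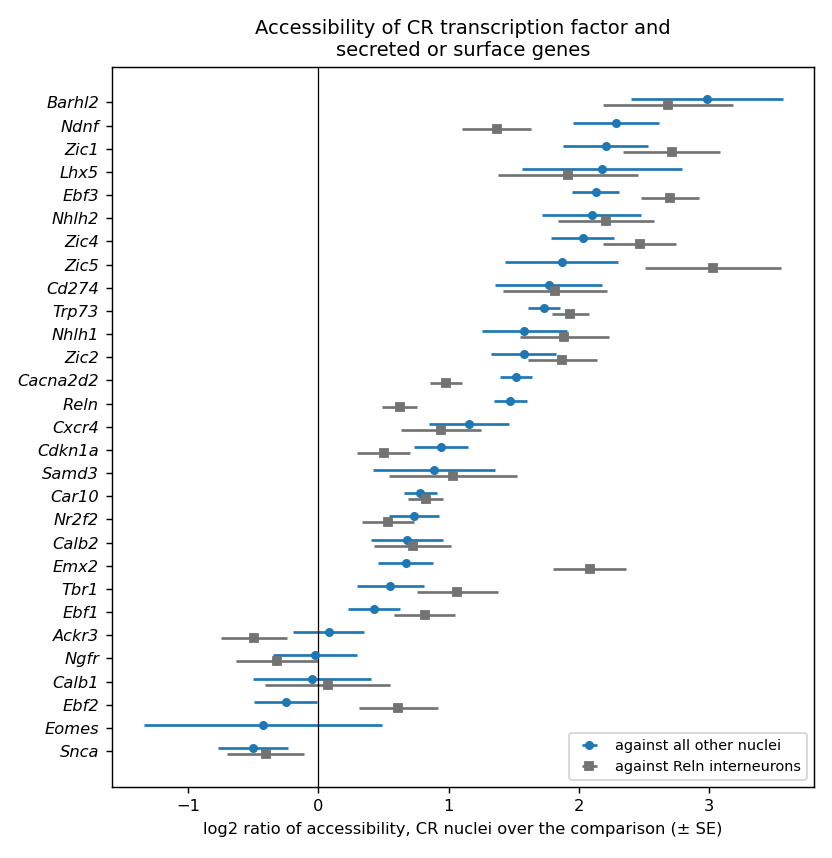
Log2 ratio of accessibility (± SE) of the CR transcription factor and secreted or surface genes reported here whose SE was under 1, in CR nuclei against all other nuclei (blue circles) and against Reln interneurons (gray squares). Barhl2 lies highest at 2.98 against all other nuclei.

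Reln itself was more accessible in CR nuclei, at 327, 235, 228 and 215 ATAC CPM against 87.9, 96.6, 73.3 and 101 in other nuclei (log2 ratio 1.47 ± 0.126, edgeR adjusted p = 6.88e-28). Reln interneurons lay in between, at 170, 174, 124 and 191, and the log2 ratio of CR nuclei to them was 0.62 (edgeR adjusted p = 0.00118). Ndnf was at 2.28 ± 0.331 against other nuclei and 1.37 against Reln interneurons. Cacna2d2 had 298, 230, 332 and 315 ATAC CPM, against 95.7, 109, 97.5 and 107 in other nuclei (log2 ratio 1.52 ± 0.121, edgeR adjusted p = 5.14e-32). Cd274 was at 1.77 ± 0.408, Cxcr4 at 1.16 ± 0.305, Cdkn1a, a cell cycle inhibitor, at 0.94 ± 0.207 and Car10 at 0.78 ± 0.124. Samd3 (0.89 ± 0.469) and Calb2 (0.68 ± 0.274) were not called.

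Of 6 glutamate release genes only Slc17a6 was more accessible and 2 were less accessible, the glutamate uptake genes Slc1a1 (log2 ratio -1.06 ± 0.203) and Slc1a2 (-0.76 ± 0.165), with a median of -0.23, beside 4.72% and 7.77% of all genes. Slc17a6 had 44.8, 61.4, 73.4 and 37.0 ATAC CPM in CR nuclei and 21.2, 21.5, 20.1 and 15.6 in other nuclei (log2 ratio 1.45 ± 0.289, edgeR adjusted p = 2.39e-05). Of 6 genes of GABA synthesis and release, 1 was more accessible than in other nuclei, the GABA transaminase gene Abat (0.54 ± 0.153), and 3 were less accessible, among them Gad1 (-1.32 ± 0.256). With peaks near the gene start alone the Abat estimate was -0.0482. Reln interneurons were chosen by Gad2 RNA, which the rule capped in CR nuclei, so the direction of GABA and interneuron genes against them is a description. Leaving out Gad2, 4 of 5 genes of GABA synthesis and release were less accessible than in Reln interneurons and 0 were more, where 5.4% of 18170 genes were called higher and 5.9% lower. They included Gad1 (log2 ratio -1.83) and the vesicular GABA transporter Slc32a1 (-2.99). Against all other nuclei 2 of 14 interneuron genes were less accessible, Adarb2 and Erbb4, and 0 were more. Of 12 tested against Reln interneurons 8 were less accessible, among them Dlx1 (-2.96), Dlx2 (-2.64) and Dlx5 (-3.60), which encode homeobox factors of the ganglionic eminences.

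In the reelin pathway, leaving out Reln itself, 2 of 19 genes were more accessible and 1 was less accessible than in other nuclei. This stands beside 4.72% and 7.77% of all genes. In the 84 members 1 of the 19 was more accessible and 2 were less, where 986 of 22996 genes were called more accessible and 2260 less. Dab1 had 393, 524, 316 and 538 ATAC CPM in CR nuclei and 717, 752, 634 and 732 in other nuclei, with no overlap (log2 ratio -0.70 ± 0.104, edgeR adjusted p = 2.44e-09). Src, a kinase that phosphorylates Dab1, was at 0.47 ± 0.137 and Pafah1b1, the lissencephaly gene Lis1, at 0.48 ± 0.157. Src was not called in the 84 members (edgeR adjusted p = 0.0688). With counts near the gene start alone Src was called less accessible (log2 ratio -10.81, edgeR adjusted p = 0.00698). Of 14 Wnt and cortical hem genes, Wnt7b was more accessible at 0.92 ± 0.149 and the Wnt effector Tcf7l2 was less accessible at -0.82.

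Counts for receptor genes are given beside the 4.72% more and 7.77% less accessible of all genes, without a test of the difference. Of 15 ionotropic glutamate receptor genes 6 were less and 1 was more accessible, and of 14 GABA-A receptor and chloride cotransporter genes 4 were less and 0 were more accessible. Grin2a had 94.9, 105, 94.2 and 155 ATAC CPM in CR nuclei and 287, 313, 272 and 298 in other nuclei (log2 ratio -1.38 ± 0.133, edgeR adjusted p = 5.48e-22). Gria4, an AMPA receptor subunit, was the 1 more accessible than in all other nuclei, at 0.97 ± 0.187. Against Reln interneurons 0 of 15 ionotropic glutamate receptor genes, Gria4 included, were more accessible and 6 were less. Of 13 GABA-A receptor and chloride cotransporter genes tested against them 0 were more and 1 was less accessible. In that comparison 5.4% of 18170 genes were called higher and 5.9% lower. Kcnh7 had 190, 114, 203 and 161 against 74.1, 88.7, 59.9 and 82.0 (log2 ratio 1.15 ± 0.142, edgeR adjusted p = 3.25e-13), so its accessibility and its RNA were both higher. Kcnc2 was the other of 21 channel genes that were more accessible (0.85 ± 0.279), and it was not called in the 84 members (edgeR adjusted p = 0.216). Of the 21 channel genes 5 were less accessible.

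Bbc3, a pro-apoptotic p53 target also called Puma, was more accessible at 0.81 ± 0.168, while Trp63, the p53 family member of epithelia, was less accessible at -1.79 ± 0.39. Diablo was not called at 0.21 ± 0.23. In all, 2 of 18 cell death and p53 family genes were more and 1 was less accessible, beside 4.72% and 7.77% of all genes. Of 31 folate and one-carbon genes, 2 were more accessible and 3 were less accessible, which is near the same shares of all genes. The reduced folate carrier gene Slc19a1 was at 0.59 ± 0.215. It was not called in the 84 members (edgeR adjusted p = 0.150).

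RNA and accessibility were compared for the 25 genes outside the rule with the largest RNA ratio. Of these 17 were more accessible and 0 less accessible than in other nuclei, beside 4.72% and 7.77% of all genes. The 25 were chosen by the RNA of these same nuclei, under minimums that all genes did not have to pass. The shares of all genes are thus not a matched background. The difference from them was not tested, and the count is a description. Utrn had 332, 221, 332 and 283 ATAC CPM in CR nuclei and 97.8, 97.0, 89.4 and 93.8 in other nuclei (log2 ratio 1.62 ± 0.122, edgeR adjusted p = 6.06e-36), although peaks near its start alone gave -0.0572. Plekha7 was at 1.45 ± 0.115, Dach1 at 1.38 ± 0.206, Eln at 1.5 ± 0.157, and Lrig3 at 1.58 ± 0.163. Pik3c2g did not follow this pattern. Its ATAC CPM were 73.8, 48.2, 75.0 and 104 in CR nuclei and 82.4, 90.3, 63.0 and 89.6 in other nuclei (log2 ratio -0.10 ± 0.174, edgeR adjusted p = 0.788), while its RNA ratio was the largest of the 25. Diablo, Angpt1 (0.27 ± 0.309) and Pkib (0.02 ± 0.483) were not called either, and Cxcl12 missed the threshold at 0.80 ± 0.301 (edgeR adjusted p = 0.0593).

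Single accessible regions were then tested, among 154731 regions with a peak in all 4 libraries. Their CPM are counts per 1000000 of all ATAC counts of a group in 1 library, without TMM scaling. The log2 ratios include the TMM scaling of the test and can differ from the ratio of the CPM beside them. In CR nuclei 1592 regions (1.03%) were more accessible and 4636 (3.0%) were less accessible by edgeR's quasi-likelihood test at a Benjamini-Hochberg adjusted p under 0.05. With RLE in place of TMM scaling the split was 1780 more and 2934 less accessible. The size of the excess of less accessible regions thus depended on the scaling. The median region held 4 member counts and 27554 regions held none, and the median log2 ratio over all regions was -1.35. Over the 16095 regions with at least 30 member counts the median was -0.16. Leaving out 1 library changed these totals by over 1.5 times: without HF 1 they were 693 more and 766 less accessible, without HF 2 950 and 1553, and without MF 1 and MF 2 the less accessible regions numbered 1077 and 2120.

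Of the more accessible regions 11.2% lay within 2000 bases of a gene start, 43.4% in introns and 38.8% between genes, and of all regions tested these shares were 18.5%, 39.1% and 33.6%. The less accessible regions lay near a start in 30.9% of cases.

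The intergenic region near Slc28a1, whose central bases are the first sequence above, had the smallest adjusted p of the more accessible regions. It spans chr7:81109734-81110662, 4137 bases from the Slc28a1 start, and had 69.9 CPM in MF 1, 87.4 in MF 2, 73.6 in HF 1 and 66.8 in HF 2. Other nuclei had 2.45, 3.99, 2.87 and 3.68 (log2 ratio 4.03 ± 0.261, edgeR adjusted p = 5.27e-49). CR nuclei stood apart from all other nuclei here in every library. The intergenic region at chr4:106220351-106221292, which holds an EBF motif in the second sequence, had a log2 ratio of 4.59 ± 0.359, and 5.82 against Reln interneurons. The region in an intron of Rgs6 (chr12:83073057-83073909), a regulator of G protein signaling, also lies in an intron of Gm29530. It held 1 homeobox and 2 E-box matches and had 59.6, 52.0, 47.0 and 56.6 CPM, against 1.95, 1.79, 2.08 and 2.07 in other nuclei (log2 ratio 4.26 ± 0.338). The region in an intron of Adcy5 (chr16:35275925-35276618), an adenylyl cyclase gene, held 1 EBF and 1 E-box match and had a log2 ratio of 4.66 ± 0.395. A region in an intron of Dnah17 and 1 near Twsg1 (5555 bases from its start) were also among the 10 more accessible regions with the smallest adjusted p.

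Both printed regions in Trp73 introns were more accessible. The first (chr4:154109165-154110103) had 114 CPM in MF 1, 37.4 in MF 2, 68.9 in HF 1 and 85.7 in HF 2, against 8.90, 10.3, 8.88 and 8.53 in other nuclei (log2 ratio 2.51 ± 0.238, edgeR adjusted p = 4.92e-22). The second (chr4:154071649-154072581), with an E-box match, had 41.4, 41.6, 72.1 and 17.1, against 3.66, 5.22, 4.47 and 5.06 (log2 ratio 2.64 ± 0.36, edgeR adjusted p = 3.14e-10). The groups overlapped in neither. Regions at gene starts were more accessible at Ebf3 (log2 ratio 2.54 ± 0.355), Zic1 (2.35 ± 0.357), Ndnf (2.14 ± 0.367), Barhl2 (2.53 ± 0.482) and Reln (1.92 ± 0.378). Most regions tested over CR genes were not called: 2 of 11 were more accessible at Trp73, 1 of 9 at Ebf3 and 2 of 25 at Reln. None was called at Emx2, Nr2f2, Tbr1, Lhx5, Zic2 or Cxcr4. A region in an Ebf1 intron (-3.43 ± 0.847, with 1, 0, 2 and 0 member counts) and 1 in a Cacna2d2 intron (-1.74 ± 0.506) were less accessible. The Reln start did not differ from that of Reln interneurons past the threshold (log2 ratio 0.47 ± 0.309, edgeR adjusted p = 0.381), while a region in a Reln intron (chr5:22266591-22267550) did, at 2.81 ± 0.642 (edgeR adjusted p = 0.00433).

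Short motifs were counted in the central 300 bases of the regions, without a test. The EBF motif TCCCNNGGGA was present in 3.14% of the 1592 more accessible regions, 0.864% of the less accessible ones and 0.847% of all regions. The homeobox motif TAATTA was present in 19.4%, 5.14% and 8.66% of them, and the E-box CAGCTG in 39.4%, 25.1% and 23.9%. The letters CATTCC, bound by TEAD factors and read on either strand, did not follow this order, at 14.3%, 16.4% and 16.4%. None of these motifs contains another, and all were searched on both strands. In intronic and intergenic regions alone the shares in more accessible and in all regions were 3.06% and 0.796% for EBF, 21.2% and 10.1% for the homeobox motif, and 39.1% and 24.3% for the E-box. Median GC content was 51% in the more accessible, 52% in the less accessible and 48% in all regions. A full site of the p53 family, the type bound by Trp73, was found in 2 of the 1592 regions and in 7 of 154710 regions.

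**Figure D4:**
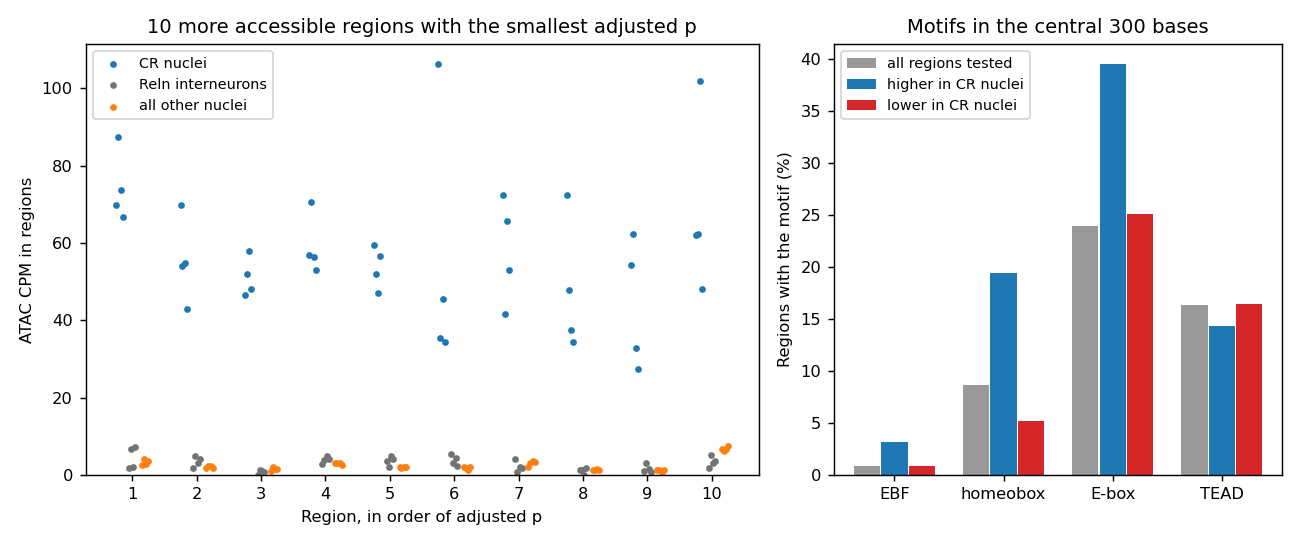
Left, ATAC CPM (linear scale) in the 10 more accessible regions with the smallest adjusted p, 1 point per library, for CR nuclei (blue), Reln interneurons (gray) and all other nuclei (orange); right, percent of regions with each motif among all tested (gray), more accessible (blue) and less accessible (red) regions. In each of the 10 regions the CR libraries lie above every other library, and the EBF motif is present in 3.14% of more accessible and 0.847% of all regions.

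Diet was compared over libraries. The share of CR nuclei among kept nuclei was 0.897% in MF 1, 0.80% in MF 2, 1.04% in HF 1 and 0.863% in HF 2. The means were 0.849 ± 0.0682% in MF and 0.950 ± 0.123% in HF (SD, n = 2), and HF 2 lay below MF 1. The difference of 0.101 percentage points gave p = 0.667 in an exact two-sided permutation test, whose smallest possible p with these 4 libraries is 0.333. By the shared cluster the difference was 0.0178 points. No difference of any size could pass 0.05 in this permutation test with 2 libraries per diet. Each library held 18 to 36 CR nuclei.

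**Figure D5:**
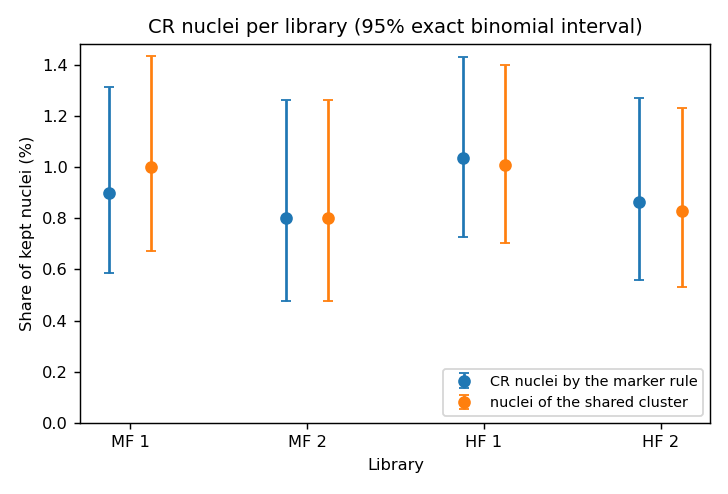
CR nuclei by the marker rule (blue) and nuclei of the shared cluster (orange) as a percent of kept nuclei in each library, with 95% exact binomial intervals that cover counting error only. The intervals of all 4 libraries overlap, and the values of the rule run from 0.80% in MF 2 to 1.04% in HF 1.

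In the RNA of CR nuclei 0 of 3550 genes (0.0%) were called between diets by edgeR's quasi-likelihood test at a Benjamini-Hochberg adjusted p under 0.05 and at least 1.2-fold. At an unadjusted p under 0.05 there were 69 genes, and DESeq2 called 0 as well. Reln had a log2 ratio of HF to MF of -0.27 ± 0.402 (SE), Trp73 -0.33 ± 0.45, Ebf3 0.07 ± 0.464, Cacna2d2 -0.21 ± 0.423 and Slc17a6 -0.49 ± 0.539, and Ndnf was at -0.01 ± 0.496. Each of these estimates was smaller than its SE. Of 5 CR transcription factors, 7 secreted and surface genes and 3 folate and one-carbon genes tested, 0 reached an unadjusted p under 0.05.

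The 5 genes with the smallest p were Cntn6, Ptpro, Tenm3, Sdk1 and Galntl6. Cntn6, a contactin of the cell surface, had 40 UMIs in MF 1, 16 in MF 2, 5 in HF 1 and 3 in HF 2 (log2 ratio -3.29 ± 0.657, edgeR adjusted p = 0.9996). Inside the shared cluster it had 0, 18.0, 9.22 and 0 CPM, so most of its UMIs came from members outside that cluster. Tenm3, a teneurin, had 210, 86, 20 and 60 UMIs (log2 ratio -2.47 ± 0.617), and 0, 72.1, 18.4 and 12.8 CPM inside the cluster. When all 106 nuclei of the shared cluster were tested instead, 3 genes were called, all higher in HF: Grin2a (log2 ratio 2.27, edgeR adjusted p = 0.0296), the ephrin receptor gene Epha6 (2.70, edgeR adjusted p = 0.0296) and the metabotropic glutamate receptor gene Grm7 (2.03, edgeR adjusted p = 0.0373). In the 84 members of that cluster 0 genes were called. Grin2a had 10, 13, 93 and 68 UMIs in the cluster nuclei of MF 1, MF 2, HF 1 and HF 2, and 10, 13, 33 and 48 in their members. The HF 1 values thus differ by the UMIs of 5 nuclei outside the rule, 1 of which held 17301 UMIs in all.

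In accessibility 0 of 14451 genes (0.0%) were called between diets, 515 had an unadjusted p under 0.05, and DESeq2 called 0. The smallest p belonged to Pou2f3, a POU homeobox factor, with 12, 9, 51 and 55 ATAC counts in MF 1, MF 2, HF 1 and HF 2 (log2 ratio 1.84 ± 0.421, edgeR adjusted p = 0.9996). Cxcl12 was among the 5 genes with the smallest p, with 9, 5, 37 and 42 ATAC counts (log2 ratio 2.00 ± 0.506, edgeR adjusted p = 0.9996). Its RNA did not move the same way, at 28, 9, 18 and 12 UMIs (log2 ratio -0.82 ± 0.597). Each library was counted over its own peak set, which the diets do not share. Trp73 accessibility had a log2 ratio of -0.24 ± 0.231, Ebf3 0.59 ± 0.326 and Reln -0.34 ± 0.238, none past the threshold.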

How the data were processed

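RNA and ATAC were read from the same hippocampal nuclei of 4 libraries. The authors trimmed and aligned reads to mm10 with Cell Ranger ARC 2.0.1, and the deposited matrices hold raw UMI counts per gene and raw ATAC counts per peak, not normalized, with peaks called separately in each library. The study's further filters on nucleosome signal and start-site enrichment need fragment files, which were not used here. Nuclei were kept with 500 to 7000 genes, at most 2% mitochondrial UMIs and 1000 to 70000 ATAC counts, which left 11518 of 14297 (80.6%). Shared barcodes joined RNA and ATAC. Doublets were scored with Scrublet in Scanpy 1.11.5 (expected rate 0.03). Its automatic threshold called 13.9, 22.0, 18.3 and 0.00% of nuclei in MF 1, MF 2, HF 1 and HF 2, so doublets were kept and a score of 0.05 served as an alternative.

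Nuclei were clustered by the Leiden method (3000 variable genes, 20 components, 20 neighbors, resolution 0.8, igraph 0.11.9, Python 3.11.15) without the genes of the rule. Counts were summed per library and group of nuclei. Gene windows came from GENCODE M21 (97.2% of 32285 features matched 1 gene), as the gene plus 2000 bases upstream. Tests were two-sided edgeR 4.0.16 quasi-likelihood F tests (R 4.3.3, limma 3.58.1, TMM, filterByExpr) with Benjamini-Hochberg adjustment over all features tested. DESeq2 1.42.0 was an alternative. RNA ratios of CR to other nuclei added 1 UMI to each sum and were not tested, since RNA chose the members. Shares were compared with exact permutation tests (SciPy 1.17.1). On simulated data for each comparison, at 4-fold changes, edgeR recovered 59.0% of 100 changed genes for RNA between diets (3493 genes), 69.0% for accessibility between diets (14192), 75.0% for gene accessibility of CR against other nuclei (23801) and 33.0% of regions (154738). At 2-fold it recovered 12.0, 9.00, 34.0 and 0.00%. Changed features were drawn only from those above a minimum mean count, and all features were simulated with 1 fixed dispersion. Recovery in sparser or more variable features was not measured. Intervals are over counts of nuclei and cover counting error only, not the spread between animals or libraries.

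Named genes were every gene of 20 lists, the 25 genes with the largest RNA ratio under the stated minimums, the 10 genes or regions with the smallest adjusted p in each direction, regions over CR genes and, for diet, the 5 genes with the smallest p. A few listed genes are counted but not reported by name. The members, lists and rules were chosen with earlier results of these data known. Alternatives were other scaling, no low-count filter, each library left out, a block for the replicate number, other marker limits, other comparison nuclei and, added after the data were seen, the 84 members of the shared cluster.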

Additional observations from a re-analysis of the deposited data

Results flagged for a closer look

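Of 40 sets of 4 library values tested for a value far from the rest, 1 had such a value, and chance gives about 1 in 20. The log2 ratio of Slc22a15 RNA, an organic cation and zwitterion transporter gene, in CR nuclei over other nuclei was 2.73 in HF 2, the lowest of the 4 libraries, whose mean was 3.02 ± 0.20 (SD, n = 4). HF 2 held 112 CPM of Slc22a15, against 143, 149 and 149 in MF 1, MF 2 and HF 1.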

How the results depend on the processing

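The share of CR nuclei was higher in HF under every alternative run, by 0.0144 to 0.188 percentage points, and with the replicate block by 0.101. Genes called between diets from RNA numbered 10 without the low-count filter, 3 in the nuclei of the shared cluster and 5 to 48 with 1 library left out, where the lone library of a diet is assumed to vary like the pair. For accessibility between diets these were 1 without the filter and 0 to 15. With the replicate block both counts stayed at 0, and no call changed. The labels do not say that replicate numbers pair the libraries, and the correlation of deviations was 0.205 over 3550 genes. Genes more accessible in CR nuclei numbered 550 to 889 with 1 library left out, 333 with at least 4 markers and 225 with peaks near the gene start, and those less accessible 977 to 1421, 880 and 430. Less accessible genes numbered 2733 for the shared cluster, 1072 against Reln interneurons and 3078 against excitatory neurons. More accessible regions numbered 3111 with DESeq2, 5682 without the library term, 693 to 1218 with 1 library left out, 236 with at least 4 markers and 2395 against excitatory neurons. Less accessible regions numbered 2934 with RLE, 40277 without the library term, 766 to 2120 with 1 library left out, 11273 for the shared cluster, 9303 for its members, 1549 against Reln interneurons, 10197 against excitatory neurons and 1528 for the members of the cluster against Reln interneurons. RNA 2-fold higher in every library was found for 326 genes in the 84 members. Among named genes, 8 estimates of accessibility reversed: Kcnc2 for the members of the cluster against Reln interneurons (-0.0926) and, with peaks near the start alone, Src (-10.81), Abat (-0.0482), Gria1 (0.0898), Dsp (-0.0015), Aqp4 (-1.09), Pecam1 (-9.24) and Utrn (-0.0572). Of these only Src was called in the reversed direction (edgeR adjusted p = 0.00698). The causes were not tested. Of 1573 estimates over named genes 1328 kept their direction and call and 237 lost the call alone. These totals pool unlike alternatives. With peaks near the gene start alone 30 of 93 named genes kept both, 56 lost the call and 7 reversed. With at least 4 markers 31 of 99 lost the call, and against Reln interneurons 29 of 97. With RLE scaling 98 of 99 kept both. Of 558 estimates over named regions 522 kept both and 36 lost the call. Libraries held 18 to 36 member nuclei, 2-fold changes between diets were seldom recovered in simulated data, and most regions held few member counts.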

Other observations

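Markers of other cell types were also seen in the accessibility of CR nuclei. Of 8 astrocyte genes 4 were less and 1 was more accessible than in other nuclei, with a median log2 ratio of -0.76. Of 7 microglial genes 2 were less accessible, and of 6 oligodendrocyte progenitor genes 3 were. Of 10 vascular and leptomeningeal genes 3 were more accessible, Pecam1, Rgs5 and Slc6a13, while Cldn5, Flt1, Col1a2, Slc6a13 and Lum had 0 UMIs of RNA in CR nuclei. Of 13 genes of pyramidal and granule neurons 2 were more and 4 were less accessible by edgeR's quasi-likelihood test, beside 4.72% and 7.77% of all genes.

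Less accessible regions among the 10 with the smallest adjusted p lay at Gm10800 (log2 ratio -1.17 ± 0.0567), Gm10718 (-1.30 ± 0.121), Gm10722 (-1.17 ± 0.164) and Crlf2 (-1.78 ± 0.231 and -2.29 ± 0.325). In CR nuclei the region at Gm10800 had 1326, 855, 805 and 1073 CPM in MF 1, MF 2, HF 1 and HF 2, against 2007, 1408, 1492 and 1464 in other nuclei. Its log2 ratio includes TMM scaling and is lower than these unscaled CPM alone would give. At the first Crlf2 region CR nuclei of MF 2 had 64.5 CPM, against 59.8 in other nuclei, so the groups overlapped there. Counts are uncertain at loci where reads can be split between near-identical copies, and this was not tested here.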
